A study of Mus musculus with 44 samples.

Results

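The nuclear genes for the subunits of the mitochondrial respiratory chain and ATP synthase were followed in the intestine of 2 mouse models of inflammatory bowel disease. A gene belonged to the set if its symbol matched one of the subunit name stems (Nduf followed by a, b, c, s or v and a number, Sdha to Sdhd, Uqcr, Cox4 to Cox8, or Atp5), if the name was not that of a pseudogene, and if its counts summed to at least 100 over the 44 libraries. Of 90 matching names, 6 were pseudogene names and 2 fell under the count minimum. This left 82 genes of the 29720 in the table, with 35 in complex I, 4 in complex II, 8 in complex III, 18 in complex IV and 17 in complex V. Ndufa4 was placed in complex IV, to which its protein is now assigned, although its name is that of a complex I gene.

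Complexes I to IV pass electrons from NADH and succinate to oxygen. Complexes I, III and IV pump protons across the inner mitochondrial membrane, and complex V, the ATP synthase, uses that proton gradient to make ATP. Complex II pumps no protons and is encoded by nuclear genes alone, whereas the other complexes are mosaics of nuclear subunits and of a few subunits encoded in mitochondrial DNA. Colonocytes and enterocytes rely on oxidative phosphorylation, and infiltrating neutrophils make most of their ATP by glycolysis.

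Sequencing libraries that keep the strand were made from poly-A RNA of snap-frozen, powdered whole intestinal tissue, for which the labels name distal colon and ileum. In the T cell transfer model all hosts were Rag1 null mice, which have no mature lymphocytes of their own. Inflamed animals of this model received 400000 naive T cells and the non-inflamed controls received 200000 bulk T cells. In the TNFΔARE model, inflamed animals carried 1 Tnf allele without its AU-rich element (Tnf ΔARE/+), the controls were Tnf +/+ littermates, and the mice were assigned to treatment at 16 weeks of age. This allele is a germline change of the Tnf gene itself, so it is not limited to a cell type. Each of the 4 states was given vehicle (methylcellulose and Tween20 in PBS) or ATI-450, which inhibits the kinase MK2, at 3 mg/kg, with a second dose after 16 h and harvest 90 min later, while the series design gives a treatment of 24 h. The transfer model had 5 non-inflamed vehicle, 6 inflamed vehicle, 6 non-inflamed ATI-450 and 6 inflamed ATI-450 libraries. The TNFΔARE model had 5 non-inflamed vehicle, 5 inflamed vehicle, 5 non-inflamed ATI-450 and 6 inflamed ATI-450 libraries. Nothing in the labels says whether the replicates of a group came from separate cages or days, so p-values measure only the spread between these samples. The labels also give each library 1 of 4 batches, and the batches were not balanced over the groups.

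Library totals ran from 5801000 to 22350000 counts with a median of 12160000, and the 82 genes took between 1.227% and 2.839% of them. Markers of small intestinal enterocytes summed to a mean of 37240 CPM (counts scaled to a common library total) in non-inflamed vehicle TNFΔARE libraries and 326.8 CPM in those of the transfer model. The colonocyte markers summed to 734.3 CPM and 9320 CPM in the same groups. Inflamed vehicle replicate 3 of the transfer model held 49850 CPM of the enterocyte markers, against a median of 139 CPM in its group. In 5 other inflamed transfer libraries (vehicle replicates 1 and 5, ATI-450 replicates 3, 5 and 6) pancreatic acinar transcripts summed to between 510 and 36410 CPM of the unscaled library total, and every other library held at most 283.4. Counts of genes called in the transfer model are given with these 6 libraries and, where stated, also without them, and levels are given with them.

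The start-site regions of the genes show the sequence that the group partly shares. RefSeq promoters (build GRCm38.p6, from 250 bases before to 50 after the annotated start) were found for 67 of the 82 genes, and 3 motifs of factors known to act on respiratory genes were searched on both strands: CCGGAAG (the ETS family, which includes GABPA, also called NRF2), GCGCAT directly followed by GCGC (NRF1) and AAGATGGC (YY1). No motif overlaps another by these letters, and a match describes the letters and not a bound site. The ETS motif stood in 15 of the 67 promoters (22.4%, against 9.1% of the promoters of all 27025 genes), the NRF1 motif in 5 (7.5% against 1%) and the YY1 motif in 9 (13.4% against 2.9%). At least 1 of the 3 stood in 27 of 67 (40.3% against 12.3%). Sequences are shown for Sdhd, Cox6a1, Cox8a and Ndufs7, whose promoters hold the motifs, and for the muscle isoform genes Cox7a1 and Cox8b, whose promoters hold none of them. Each sequence is written 5′ to 3′ on the gene's own strand with motif matches in capitals, on either strand. Sdhd (minus strand, chr9:50603800-50604099) has an ETS match that begins 46 bases before the start. Cox6a1 (minus strand, chr5:115348909-115349208) has an ETS match at 16 and an NRF1 match at 162 bases before it. Cox8a (minus strand, chr19:7217567-7217866) has 2 ETS matches, the first at 5 bases before the start, and Ndufs7 (plus strand, chr10:80249199-80249498) has a YY1 match 24 bases after it. The Cox7a1 sequence is chr7:30183921-30184220 (plus strand) and that of Cox8b is chr7:140900397-140900696 (minus strand).
Sdhd: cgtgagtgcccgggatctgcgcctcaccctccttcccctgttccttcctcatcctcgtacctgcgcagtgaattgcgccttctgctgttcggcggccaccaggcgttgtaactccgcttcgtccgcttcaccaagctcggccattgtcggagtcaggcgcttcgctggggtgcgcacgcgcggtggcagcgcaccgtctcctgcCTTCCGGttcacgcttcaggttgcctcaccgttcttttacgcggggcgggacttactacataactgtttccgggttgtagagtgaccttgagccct
Cox6a1: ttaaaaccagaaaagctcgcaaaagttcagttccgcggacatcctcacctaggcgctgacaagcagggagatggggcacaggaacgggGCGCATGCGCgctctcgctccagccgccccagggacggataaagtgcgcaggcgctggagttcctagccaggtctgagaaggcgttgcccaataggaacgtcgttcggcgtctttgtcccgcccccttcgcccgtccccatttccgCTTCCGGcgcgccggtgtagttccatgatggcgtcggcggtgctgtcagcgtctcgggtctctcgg
Cox8a: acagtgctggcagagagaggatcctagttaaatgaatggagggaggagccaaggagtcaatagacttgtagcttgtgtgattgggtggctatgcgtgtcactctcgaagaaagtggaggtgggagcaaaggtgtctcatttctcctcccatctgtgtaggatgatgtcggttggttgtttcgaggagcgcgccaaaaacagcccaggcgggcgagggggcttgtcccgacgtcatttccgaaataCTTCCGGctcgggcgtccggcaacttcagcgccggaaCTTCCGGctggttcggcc
Ndufs7: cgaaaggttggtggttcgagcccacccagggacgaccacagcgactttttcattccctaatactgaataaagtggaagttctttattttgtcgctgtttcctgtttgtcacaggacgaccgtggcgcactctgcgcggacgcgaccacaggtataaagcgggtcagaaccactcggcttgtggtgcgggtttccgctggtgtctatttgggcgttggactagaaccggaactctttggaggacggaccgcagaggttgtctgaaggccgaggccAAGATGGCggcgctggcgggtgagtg
Cox7a1: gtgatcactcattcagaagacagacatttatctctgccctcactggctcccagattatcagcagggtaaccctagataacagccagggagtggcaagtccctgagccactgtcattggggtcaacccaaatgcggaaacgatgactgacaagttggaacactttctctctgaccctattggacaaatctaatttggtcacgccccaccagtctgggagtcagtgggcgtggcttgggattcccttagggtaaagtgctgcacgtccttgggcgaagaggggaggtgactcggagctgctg
Cox8b: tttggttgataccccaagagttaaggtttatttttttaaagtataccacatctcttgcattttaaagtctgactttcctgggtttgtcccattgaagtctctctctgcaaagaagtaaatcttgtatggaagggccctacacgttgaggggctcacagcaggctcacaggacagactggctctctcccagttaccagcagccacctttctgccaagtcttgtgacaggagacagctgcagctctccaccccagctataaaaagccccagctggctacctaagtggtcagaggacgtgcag

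The summed level of the 82 genes varied between libraries more than between most groups, and its lowest and tightest values were those of inflamed TNFΔARE mice given ATI-450. In the transfer model the summed level was 20240 ± 4830 CPM (SD, n = 5) in non-inflamed and 18560 ± 4765 CPM (n = 6) in inflamed vehicle mice. It was 20730 ± 3729 CPM in non-inflamed and 20370 ± 6452 CPM in inflamed mice given ATI-450 (n = 6 each). In the TNFΔARE model the vehicle groups stood at 20300 ± 6145 CPM without and 17020 ± 4430 CPM with inflammation (n = 5 each). Under ATI-450 they stood at 19570 ± 4272 CPM (n = 5) and 13380 ± 1328 CPM (n = 6), and the highest of the latter 6, at 14730 CPM, lay below the lowest non-inflamed ATI-450 library, at 15050 CPM. Of those 6 inflamed libraries 5 belonged to batch 3 and 1, at 12140 CPM, to batch 2, whereas all 5 non-inflamed ATI-450 libraries belonged to batch 2, so that batch and inflammation are nearly the same split there. Batch 3 libraries were low elsewhere too. They averaged 15020 CPM in inflamed ATI-450 transfer mice, against 25220 in batch 1. Single batch 3 libraries held 14460 CPM in inflamed vehicle transfer mice (batch 4 mean 19370) and 18180 in non-inflamed ATI-450 ones (batch 1 mean 21810, lowest 17970). In inflamed vehicle TNFΔARE mice the batch 3 library held 13810 CPM (batch 2 mean 17820, lowest 11800).

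Among the complexes, ATP synthase genes held the largest summed level in each group, from 5930 ± 574.3 CPM in inflamed ATI-450 TNFΔARE mice (n = 6) to 8580 ± 2311 CPM in non-inflamed vehicle TNFΔARE mice (n = 5). Complex I genes ranged from 2672 ± 262.7 to 4468 ± 1710 CPM, and complex IV genes from 2120 ± 243.3 to 3910 ± 1024 CPM. Complex III genes ranged from 1550 ± 166.2 to 2648 ± 604.7 CPM, and the 4 complex II genes from 1110 ± 98.5 to 1508 ± 346.3 CPM (SD, n = 5 or 6). For all 5 complexes the lowest group mean was that of the inflamed ATI-450 TNFΔARE mice. In bulk tissue, fewer cells of a type and less RNA per cell cannot be told apart.

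**Figure D1:**
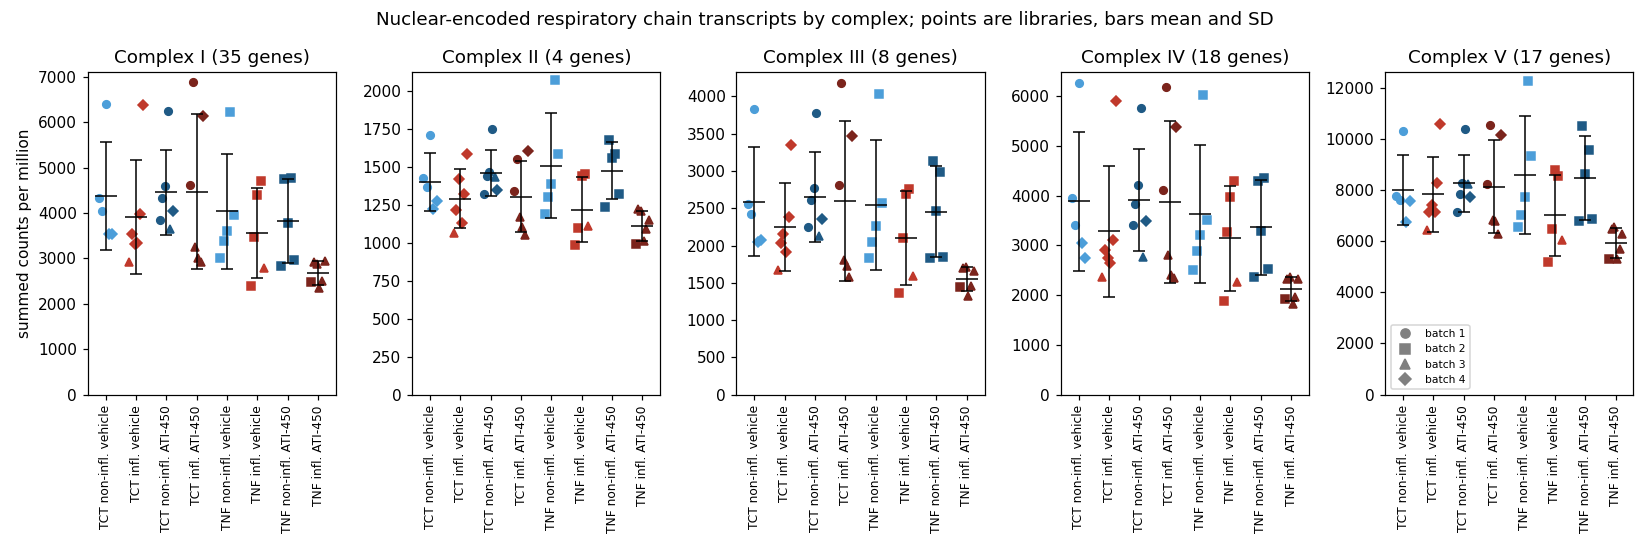
Summed CPM (linear axes from 0) of the genes of each complex in every library of the 8 groups; marker shape gives the labelled batch, and bars the mean and SD. The inflamed ATI-450 TNFΔARE libraries lie close together at the low end of each panel, and 1 or 2 libraries stand high in most of the other groups.

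Per kilobase of transcript, the members with the highest means were Cox4i1, the common form of cytochrome c oxidase subunit 4, at 1219 CPM per kb over the 44 libraries, and Atp5b, the catalytic beta subunit of ATP synthase, at 1159, and the order of these genes differed between groups. Atp5g3, 1 of the genes for the membrane ring subunit c, reached 960.4 CPM per kb, the small complex IV subunit Cox8a 791.9, the complex III hinge protein Uqcrh 716.9 and Cox6a1 685.4. The lowest were the tissue-restricted forms Cox6a2 (0.628 CPM per kb), Cox4i2 (0.893) and Cox8b (1.757). Atp5s, a factor that is not a structural subunit, and the complex I gene Ndufs4 stood at 2.563 and 2.654 CPM per kb. Cox6b1 and Ndufa4, whose proteins are widely expressed parts of complex IV, were counted at only 2.734 and 4.166 CPM per kb, and Ndufa4 was 0 in 23 of the 44 libraries. Whether counting split or lost their reads was not tested.

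The share of the tissue-restricted complex IV isoforms in the counts differed by gene. Cox4i2, the form induced by low oxygen, made up at most 0.106% of the per-length sum of Cox4i1 and Cox4i2 in the mean of any group. Cox6a2 and Cox8b, forms of heart and skeletal muscle, reached at most 0.201% and 0.422% beside Cox6a1 and Cox8a. Cox7a1, also known as a muscle form, in contrast held the larger part of the Cox7a1 and Cox7a2 sum in every group, from 65.2% ± 9.38 (SD, n = 6) in inflamed ATI-450 transfer mice to 82.9% ± 4.98 (n = 6) in inflamed ATI-450 TNFΔARE mice. Cox7a2 itself was counted at only 37.57 CPM per kb, against 685.4 for Cox6a1 and 791.9 for Cox8a. It also varied widely between libraries of a group (SD of log2 CPM 1.13). Whether counting split or lost its reads was not tested, so this share may not reflect a choice of isoform. In non-inflamed vehicle transfer libraries Cox7a1 stood at 52.4, 36.8, 70.8, 34.9 and 26.5 CPM, and in the inflamed ones between 7.67 and 51.2 CPM with a median of 15.5 CPM. The highest inflamed value was that of the library with small intestinal transcripts, and the groups overlapped (log2 fold change −0.57 ± 0.43 SE, edgeR adjusted p = 0.38). Skeletal muscle markers summed to means between 13 and 249.8 CPM across groups, with single libraries up to 1079 CPM, and smooth muscle markers to means between 1788 and 6567 CPM. Their part in the Cox7a1 level was not tested.

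Within a group, the genes moved together from library to library, and the short ones moved most. The highest library held 1.719 times the summed level of the lowest in non-inflamed vehicle transfer mice and 2.068 times in the inflamed ATI-450 ones, but 1.251 times in inflamed ATI-450 TNFΔARE mice. In 5 of 8 groups the same library was highest for complexes I, III, IV and V. The within-group SD of log2 CPM fell with transcript length, from a median of 0.54 in the class of shortest transcripts through 0.45 (up to 700 nt), 0.41 (up to 1000 nt) and 0.36 (up to 1500 nt) to 0.25 over 1500 nt. Over the 73 genes that averaged 10 CPM or more, the Spearman correlation of length and spread was −0.667, across genes of the same libraries. Among these 73, the short Cox7a2 and Cox7a1 varied most (SD 1.13 and 0.83), and the long Atp5a1, Ndufa10 and Ndufs1 least (0.14, 0.14 and 0.15).

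**Figure D2:**
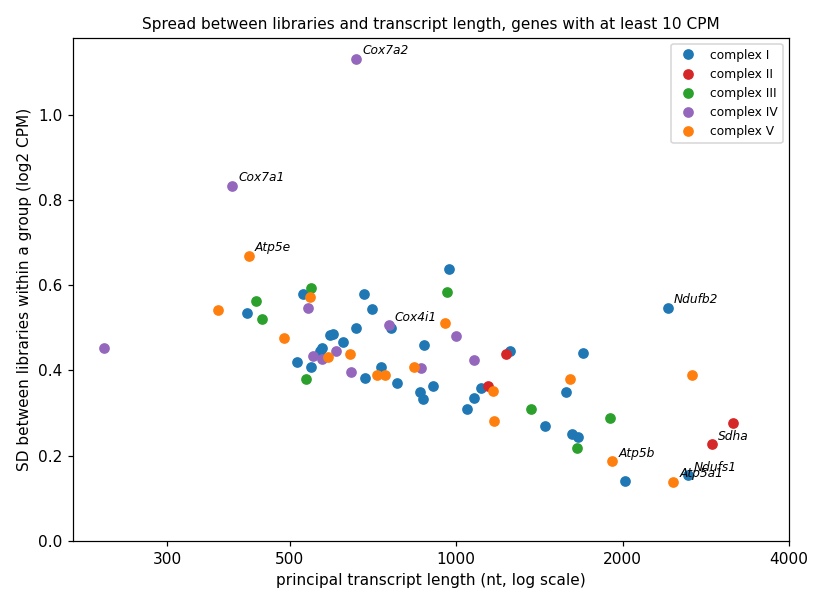
Within-group SD of log2 CPM of each gene (vertical axis) against the length of its principal transcript in nt (horizontal log axis), coloured by complex. The spread falls from a median of 0.54 in the shortest genes to 0.25 in the longest.

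The same libraries were high for other short transcripts. A value per library was formed as the median log2 level of 210 other protein-coding genes with transcripts under 700 nt minus that of 4601 with transcripts over 3000 nt, each gene taken relative to its mean over libraries. In 6 of 8 groups the library highest in this short-minus-long value was the library highest for the 82 genes. The value was 1.256 in inflamed vehicle transfer replicate 6 against −0.35 to −0.03 in the other libraries of its group, and 1.152 in non-inflamed vehicle TNFΔARE replicate 4 against −0.2 to −0.06 in its group. These libraries held 27800 and 30590 CPM of the 82 genes, the highest values of their groups. Sdha, the long flavoprotein subunit of complex II, ran the other way, since in 4 of 8 groups the library highest for the 82 genes was the lowest for Sdha. The group means of the value also differed, at −0.39 ± 0.13 (SD, n = 6) in inflamed ATI-450 TNFΔARE mice and 0.18 ± 0.58 (n = 5) in inflamed vehicle TNFΔARE mice. What sets this library difference was not tested, and each comparison of the 82 genes below is given first without it and then with it as a covariate of the fit, a choice made after the values had been seen. Values for pathway genes and cell type markers are without the covariate unless stated. Counts of the 82 genes under alternative fits are given without the share of all genes called there, unless stated. Such a count alone does not show whether the set or all genes gained or lost calls.

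**Figure D3:**
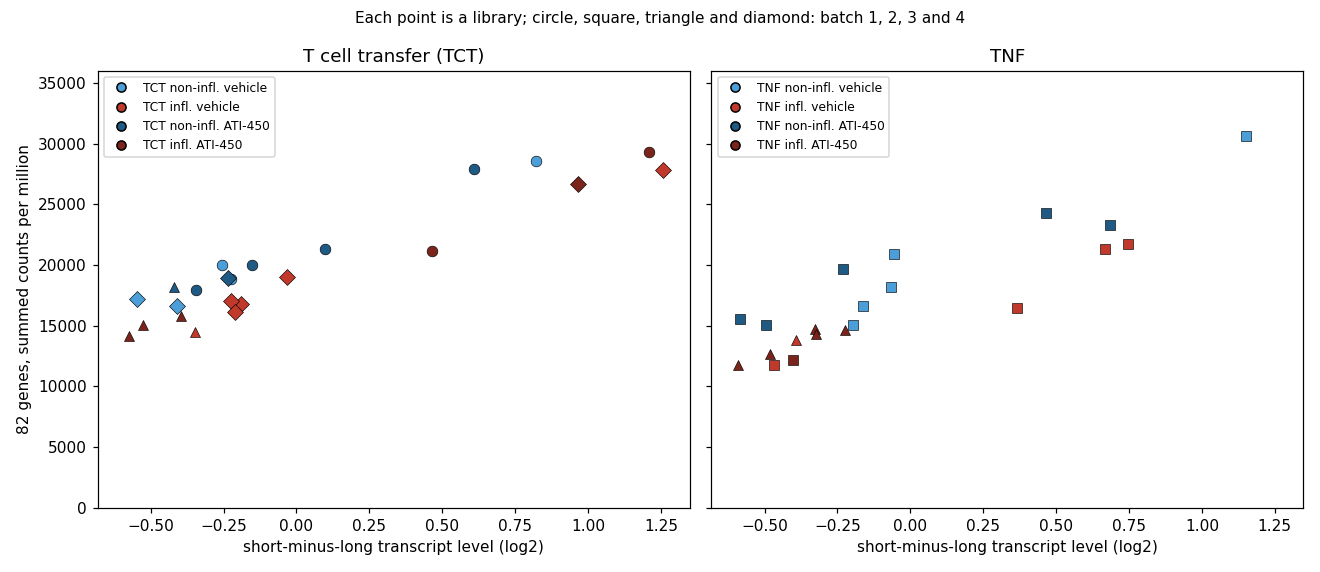
Summed CPM of the 82 genes (vertical axis, from 0) against the short-minus-long transcript value of the library (horizontal axis, log2), for the transfer model and the TNFΔARE model; colour gives the group and marker shape the batch. Libraries far to the right, such as those at 1.152 and 1.256, lie near the top, at 30590 and 27800 CPM.

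In the TNFΔARE model, 1 of the 79 genes tested fell with inflammation under vehicle and 0 rose. Of the 79 log2 fold changes, 74 were below 0 (median −0.21, against −0.02 over all 14370 genes tested), and these genes vary together from library to library, while 15.9% of all genes changed, 8.66% of them upward and 7.27% downward. The gene that fell was Ndufs1, the large iron-sulfur subunit of the NADH-oxidising arm of complex I. Its level was 153, 150, 171, 191 and 204 CPM in non-inflamed and 131, 126, 154, 145 and 144 CPM in inflamed libraries. The highest inflamed library lay just above the 2 lowest controls, and the log2 fold change was −0.32 ± 0.10 (edgeR quasi-likelihood test, adjusted p = 0.0373). Leaving out 1 library ended this call in 7 of 10 fits (inflamed replicates 1, 2, 4 and 5, control replicates 3, 4 and 5), and over all alternatives the adjusted p ran from 0.0023 to 0.213. On the deposited normalized signal limma gave −0.63 for Ndufs1. At an unadjusted p under 0.05, 3 genes were lower and 0 higher, DESeq2 called 1 lower, limma on the deposited normalized signal 2 lower, and a fit within batch 2 none.

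With the short-minus-long value as a covariate the standard errors shrank and 49 of the 79 genes fell, with 0 rising (median −0.28; 25.8% of all genes changed in that fit, 12.9% in each direction). The lower genes were 19 of 35 in complex I, 3 of 4 in complex II, 6 of 8 in complex III, 7 of 15 tested in complex IV and 14 of 17 in complex V. Within batch 2 alone 18 genes fell, and leaving out 1 library gave between 29 and 54, the lowest without inflamed vehicle replicate 1 and the next, 31, without inflamed vehicle replicate 2. The median standard error of the 79 genes was 0.24 without and 0.09 with the covariate.

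In complex I, the accessory subunits Ndufb2, Ndufb8 and Ndufb7 fell by 0.32, 0.37 and 0.30 on the log2 scale in this covariate fit (edgeR adjusted p = 0.0023, 0.0044 and 0.0048), and Ndufs1 fell by 0.33 (adjusted p = 0.0065). In complex II, Sdhb, the iron-sulfur subunit, stood at 200, 215, 237, 481 and 314 CPM in non-inflamed and 147, 200, 271, 274 and 166 CPM in inflamed libraries. These groups overlapped, and control replicate 4 stood far above the rest. Its log2 fold change of −0.43 ± 0.24 without the covariate missed the threshold (edgeR adjusted p = 0.262), and it fell by 0.49 ± 0.09 with it (edgeR adjusted p = 7.8e-04). The membrane anchors Sdhc and Sdhd fell by 0.36 and 0.38 in the covariate fit, and the flavoprotein gene Sdha had a log2 fold change of −0.22 ± 0.09 that missed the threshold (edgeR adjusted p = 0.0839).

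In complex III, Uqcrb, a small subunit next to the ubiquinone site, stood at 159, 203, 198, 285 and 213 CPM in non-inflamed and 113, 172, 175, 198 and 123 CPM in inflamed TNFΔARE vehicle libraries. The lowest 2 inflamed libraries lay below every control and the other 3 within the range of the controls, and Uqcrb fell by 0.46 ± 0.10 in the covariate fit (edgeR adjusted p = 0.0015). Uqcrq fell by 0.44 and the Rieske iron-sulfur protein gene Uqcrfs1 by 0.38. In complex IV, Cox7b, a small structural subunit, stood at 239, 242, 299, 529 and 284 CPM in non-inflamed and 154, 260, 312, 324 and 173 CPM in inflamed libraries. The groups overlapped, and in the covariate fit Cox7b fell by 0.42 ± 0.07, the smallest p of the set (edgeR adjusted p = 1.6e-04). Cox4i1, Cox6a1, Cox8a and Cox5b fell by 0.27, 0.32, 0.24 and 0.24. Cox7a1, Cox7a2 and Cox7a2l, the last a factor that joins complexes III and IV, had log2 fold changes of −0.35, −0.40 and 0.01 and did not pass.

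In complex V, Atp5o, which ties the catalytic head of ATP synthase to its stalk, stood at 319, 361, 400, 768 and 521 CPM in non-inflamed and 220, 293, 445, 462 and 267 CPM in inflamed TNFΔARE vehicle libraries. The inflamed values reached into the range of the controls, and Atp5o fell by 0.56 ± 0.11 in the covariate fit (edgeR adjusted p = 8.9e-04). Atp5k, the e subunit at the dimer interface, fell by 0.42 ± 0.08 (adjusted p = 7.2e-04). The genes Atp5g1, Atp5g2 and Atp5g3 encode the same mature subunit c: Atp5g1 and Atp5g3 fell by 0.32 and 0.46, and Atp5g2 had a log2 fold change of 0.07 ± 0.20 with an adjusted p of 0.851.

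**Figure D4:**
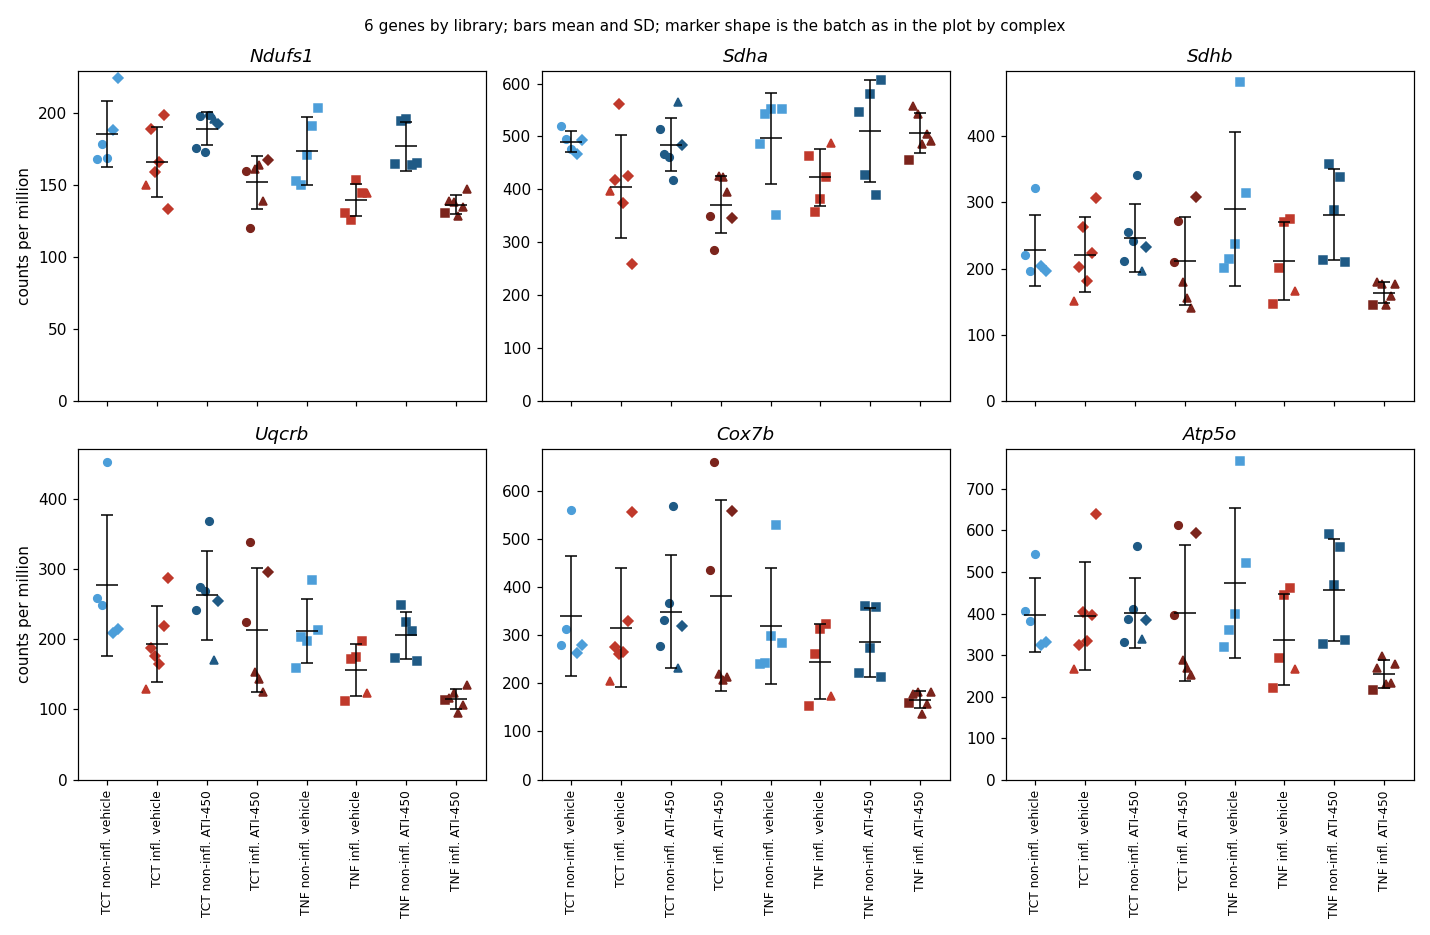
CPM (linear axes from 0) of Ndufs1, Sdha, Sdhb, Uqcrb, Cox7b and Atp5o in every library of the 8 groups, with bars for mean and SD and marker shape for the batch. Ndufs1 varies little within a group, whereas the other genes except Sdha have single high libraries such as the 529 CPM of Cox7b in a non-inflamed vehicle TNFΔARE library.

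In the transfer model, 0 of 82 genes rose and 0 fell with inflammation under vehicle, where 14.2% of all 15317 genes changed (7.9% rose and 6.28% fell). The median log2 fold change was 0.10 (0.05 over all genes), and 64 of the 82 values were above 0. At an unadjusted p under 0.05, 1 gene was higher and 2 were lower, DESeq2 called 1 gene higher and limma on the normalized signal 0. The smallest adjusted p belonged to Ndufs8 (log2 fold change 0.75 ± 0.28, edgeR adjusted p = 0.0756), and Sdha and Ndufs1 had values of −0.34 ± 0.16 and −0.25 ± 0.12 (adjusted p = 0.15 each). Of the 95% intervals, 68 of 82 lay within 1 log2 unit of 0, so changes above 2-fold were outside the interval for those genes.

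The covariate turned the direction of most of these values: 23 of 82 genes fell and 0 rose (median −0.23; 6.2% of all genes rose and 5.19% fell in that fit). They were 12 genes of complex I, 0 of complex II, 2 of complex III, 5 of complex IV and 4 of complex V. Cox6c, a small complex IV subunit, fell by 0.49 ± 0.10 and Uqcrb by 0.50 ± 0.10 (edgeR adjusted p = 0.0076 and 0.0082). Ndufa6 and Ndufa1, accessory subunits of complex I, fell by 0.68 and 0.75, and Ndufa3 by 0.33. Cox6a1 and Cox8a fell by 0.43 and 0.39, Cox6c2 by 0.47, Uqcrh by 0.44, Atp5j and Atp5h by 0.31 each and Atp5mpl by 0.25. Without the covariate Cox8a, Ndufa3, Uqcrh, Atp5j, Atp5h and Atp5mpl had values from 0.01 to 0.23, and none of them passed.

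This transfer count rested on which libraries entered. Without the library with small intestinal and the 5 with pancreatic transcripts 3 genes fell, within batch 4 alone, where 0 of all genes passed, none did, and with no batch term 43 did. Leaving out non-inflamed vehicle replicate 4 gave 7, replicate 6 of that group 10, inflamed vehicle replicate 4 gave 13, and the highest count was 27. For Ndufa6 the non-inflamed vehicle libraries stood at 129, 101, 217, 90.2 and 73.4 CPM. The inflamed ones ran from 44.4 to 112 CPM with a median of 70 CPM, so that the groups overlapped and 5 of the 6 inflamed libraries lay below every control.

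**Figure D5:**
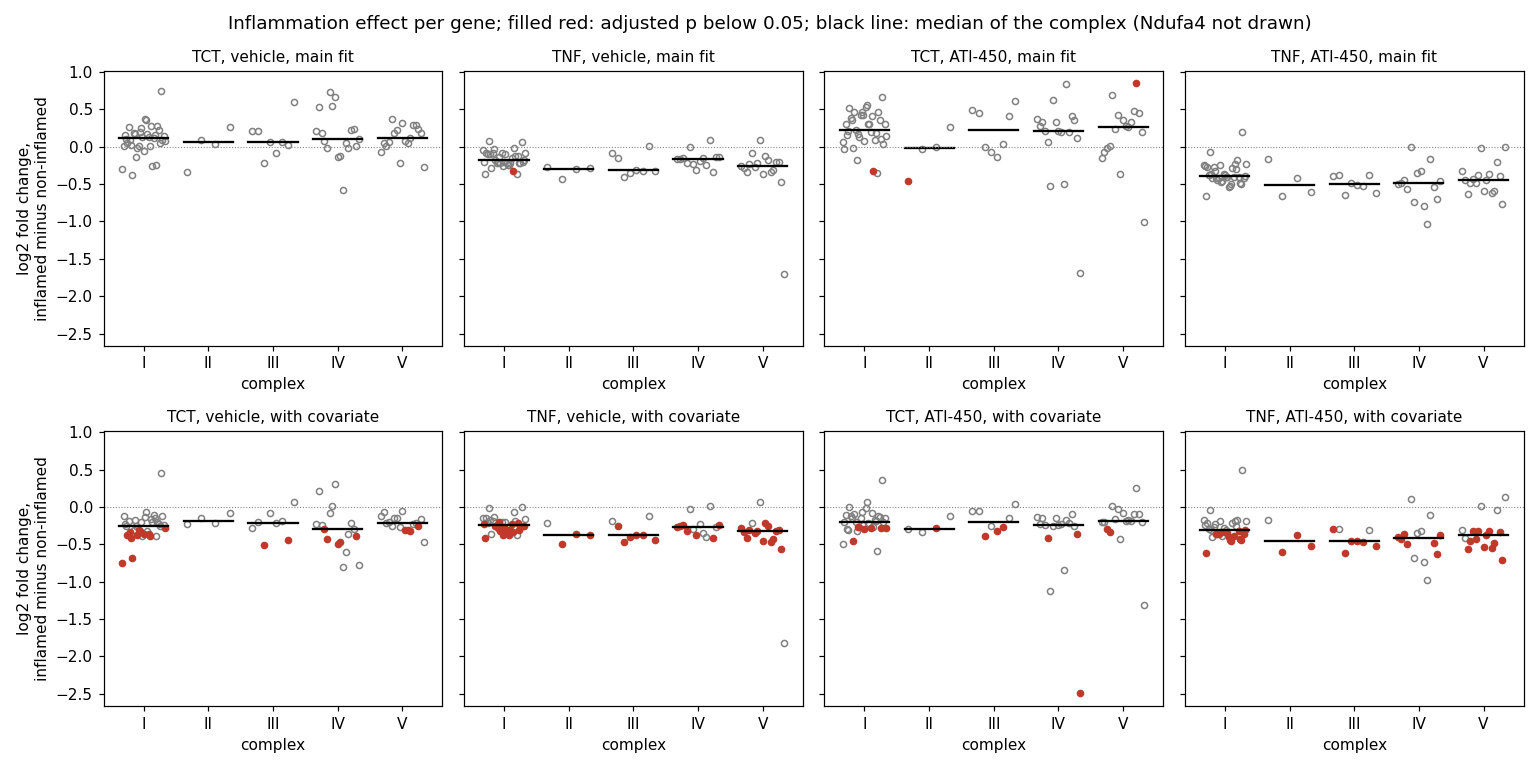
Log2 fold change of inflamed against non-inflamed mice by complex, in both models under vehicle and under ATI-450, without (top) and with (bottom) the short-minus-long covariate. Each point is a gene, and Ndufa4 is not drawn. Filled points passed an adjusted p of 0.05, the dotted line marks 0 and black lines mark the medians of the complexes. Without the covariate Ndufs1 is filled for TNFΔARE vehicle mice, and Sdha, Ndufs1 and Atp5l for transfer ATI-450 mice, with Atp5l above 0. With it 49 TNFΔARE and 23 transfer genes passed under vehicle, and 43 and 15 under ATI-450, all below 0.

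Of the genes that fell under vehicle in the covariate fit, 15 were shared by both models, which is 65.2% of the 23 in the transfer model and 30.6% of the 49 in the TNFΔARE model. Of all 79 genes tested in the TNFΔARE model 62% fell in that fit, a share close to the first of these. The shared genes included Cox6a1, Cox8a, Cox6c, Cox5b, Uqcrb, Ndufb10, Ndufb2, Atp5h and Atp5j. The inflammation effect itself was compared between models in a joint fit. None of 82 genes differed in the fit without the covariate (5.27% of 15565 genes did, with 3.37% higher and 1.91% lower in the transfer model), where 1 gene was higher and 1 lower at an unadjusted p under 0.05 and DESeq2 called 0. With the covariate 2 genes differed (7.72% of all genes, 4.67% higher and 3.05% lower), and both had the higher effect in the transfer model. For Atp5g3 the difference was 0.40 ± 0.12 (edgeR adjusted p = 0.0425) and for Uqcrq 0.46 ± 0.15 (adjusted p = 0.049). These calls were 0 with a covariate made without ribosomal protein genes and 0 without the 6 libraries that stand apart, and leaving out 1 library gave 0 to 3.

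Under ATI-450 few genes of the set passed between inflamed and non-inflamed mice of the transfer model. The median log2 fold change there was 0.23 (0.02 over all genes). Of the 95% intervals, 61 of 82 lay within 1 log2 unit of 0. There 1 gene rose and 2 fell of 82 (25% of all genes changed, 14% upward and 11% downward). Sdha stood between 418 and 565 CPM in non-inflamed libraries (median 475) and between 286 and 425 CPM in inflamed ones (median 373). The lowest 4 inflamed libraries lay below every control, and Sdha fell by 0.46 ± 0.14 on the log2 scale (edgeR adjusted p = 0.0246). Ndufs1 ran from 173 to 199 CPM (median 194) without and from 121 to 168 CPM (median 160) with inflammation. These 2 groups did not overlap, and Ndufs1 fell by 0.33 ± 0.11 (adjusted p = 0.0307). Atp5l, subunit g of ATP synthase, rose by 0.85 ± 0.30 (adjusted p = 0.0462). It had 10.1 to 19 CPM without and 7.35 to 42.3 CPM with inflammation, and the Atp5l call was lost when the counts of its near-identical copy were added (0.62, adjusted p = 0.0793). The Atp5l call was also lost in 7 of 12 fits that left out 1 library. With inflamed ATI-450 replicate 2 left out, Sdha, Ndufs1 and Atp5l had adjusted p-values of 0.0911, 0.137 and 0.3. Without non-inflamed ATI-450 replicate 5, the library with 979.6 CPM of skeletal muscle markers, 6 genes rose, and without the 6 libraries that stand apart 0 rose and 1 fell. With the short-minus-long covariate none of these 3 calls passed: Sdha had a log2 fold change of −0.30, Ndufs1 of −0.27 and Atp5l of 0.26 (edgeR adjusted p = 0.119, 0.09 and 0.391).

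In the covariate fit of the ATI-450 mice, 15 of 82 genes fell in the transfer model (9.07% of all genes rose and 6.05% fell). They included Cox6a1 (−0.42 ± 0.09, edgeR adjusted p = 0.0053), Atp5d (−0.33), Uqcrb (−0.39), Sdhc (−0.28) and Cox8b (−2.49 ± 0.68), the last at a mean of 1.43 CPM in non-inflamed and 0.564 CPM in inflamed mice. This count was 27 without the 6 libraries that stand apart, 30 by DESeq2, 42 with no batch term and 2 within batch 1, and leaving out 1 library gave 3 to 19, with 3 without inflamed replicate 1, 5 without inflamed replicate 2 and 6 without non-inflamed replicate 4.

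In the TNFΔARE mice given ATI-450, 0 of 79 genes rose or fell (7.91% of all genes rose and 4.56% fell) although 77 of 79 values were below 0 and the median was −0.42. At an unadjusted p under 0.05, 2 were lower and 0 higher, DESeq2 called 1 lower, and limma on the normalized signal 0. With no batch term 35 genes fell. Cox7b stood at 222, 360, 274, 359 and 213 CPM without inflammation and between 137 and 181 CPM (median 169) with it, so that the groups did not overlap. Its log2 fold change was −0.54 ± 0.35 in the fit with batch (edgeR adjusted p = 0.402). With the covariate 43 of 79 genes fell (11.5% of all genes rose and 9.94% fell), among them Cox7b by 0.48, Atp5o by 0.71, Sdhb by 0.61, Uqcrb by 0.62 and Atp5c1 by 0.56. Without inflamed ATI-450 replicate 1, the 1 inflamed library of this group in batch 2, the count was 2, and the other fits without a library gave up to 52. Inflammation and batch can hardly be told apart in these groups.

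ATI-450 itself was accompanied by no detected change in any of these genes. In inflamed TNFΔARE mice 4 of 5 vehicle libraries belonged to batch 2 and 5 of 6 ATI-450 libraries to batch 3. In inflamed transfer mice 5 of 6 vehicle libraries belonged to batch 4, against 1 of 6 ATI-450 libraries. Treatment and batch can therefore hardly be told apart in the inflamed mice. In inflamed transfer mice 0 of 82 genes rose or fell (0.00653% of all genes, 1 gene, changed), with a median log2 fold change of 0.24 and 69 values above 0. In inflamed TNFΔARE mice 0 of 79 changed (0% of all genes), with a median of −0.34 and 74 values below 0. In non-inflamed mice 0 of 82 and 0 of 79 changed (0% of all genes in both), with medians of 0.11 and −0.12. At an unadjusted p under 0.05 the 4 comparisons held 1, 1, 0 and 0 genes, and neither DESeq2 nor limma called a gene of the set. The covariate brought the medians to 0.06, −0.06, 0.01 and 0.03 and called none. The 95% interval lay within 1 log2 unit of 0 for 66 of 82 and 41 of 79 genes in the inflamed groups and for 73 of 82 and 74 of 79 in the non-inflamed groups.

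The direction of the values in the inflamed transfer mice turned when the 6 libraries that stand apart were left out (median −0.13). Among single genes, Atp5l had the smallest p in the inflamed transfer mice (log2 fold change 0.79 ± 0.34, edgeR adjusted p = 0.99), followed by Uqcrh (0.49), Ndufa7 (0.48) and Uqcr10 (0.46). In inflamed TNFΔARE mice Atp5s had a value of 1.74 ± 0.79, Ndufa5 of −0.48 ± 0.24 and Cox7c of −0.76 ± 0.40 (adjusted p = 0.989 each). Their intervals ran from 0.08 to 3.40 for Atp5s, from −0.97 to 0.02 for Ndufa5 and from −1.59 to 0.08 for Cox7c. Atp5s had raw counts of 0, 0, 0, 43 and 14 in the inflamed vehicle libraries, so its value rests on few counts.

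Between the models, non-inflamed vehicle mice differed in 3 of 82 genes, with 2 higher and 1 lower in the TNFΔARE model (33.4% of all genes differed, 18.2% higher and 15.2% lower). Model, tissue and batch cannot be told apart in this comparison, since the 2 models share no batch among these mice. Ndufa4 was counted in 4 of 5 TNFΔARE libraries (5.7, 11.3, 0, 12.7 and 9.91 CPM) and in 1 of 5 transfer libraries (0.344 CPM), and passed with an adjusted p of 2.5e-04 (edgeR), subject to the doubt about its counting given above. Cox6b2, the testis form of subunit 6b, was 1.48 ± 0.37 higher on the log2 scale (adjusted p = 0.0016), at 1.82, 1.89, 4.84, 5.42 and 4.08 CPM against 0.97, 0.861, 1.96, 1.66 and 0.983 CPM. Cox6c2, which the annotation calls a processed pseudogene of Cox6c, was 0.73 lower (log2 fold change −0.73 ± 0.28, adjusted p = 0.043). This call was lost without transfer replicate 1, 2 or 4 or TNFΔARE replicate 1, 2, 3 or 5 of these groups. It was also lost with no count filter, and with a batch term the Cox6c2 value was 0.42. The covariate fit called 3 higher and 38 lower (21.8% and 20.8% of all genes), the lower ones led by Uqcr10 (−0.92 ± 0.10), Cox5b (−0.51), Ndufb10 (−0.53) and Ndufa1 (−0.93).

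Of the 13 subunits encoded in mitochondrial DNA, which complete complexes I, III, IV and V, 12 fell and 0 rose in the transfer model under vehicle (median −1.14), led by mt-Cytb (−1.25 ± 0.26), mt-Co1 (−1.41 ± 0.30) and mt-Nd2 (−1.16 ± 0.25, edgeR adjusted p = 0.0045, 0.0048 and 0.0061). Their summed level was 81940, 62800, 62520, 34810 and 23890 CPM in non-inflamed libraries and ran from 11000 to 23840 CPM in inflamed ones. The first 3 of the controls belonged to batch 1, the other 2 to batch 4, and 5 of the 6 inflamed libraries to batch 4. Under ATI-450 4 of 13 fell (mt-Atp8, mt-Nd5, mt-Co1 and mt-Nd4l). Of all genes 6.28% fell under vehicle and 11% under ATI-450 in this model. Without the 6 libraries that stand apart 7 fell under vehicle (median −1.22) and 3 under ATI-450, where 1.81% and 9.64% of all genes fell. In the TNFΔARE model mt-Atp8 fell under vehicle (−0.61 ± 0.19, edgeR adjusted p = 0.031), and 0 of 13 changed under ATI-450. There 7.27% and 4.56% of all genes fell. With the covariate 12, 0, 4 and 1 of 13 fell in these comparisons, in the order transfer vehicle, transfer ATI-450, TNFΔARE vehicle and TNFΔARE ATI-450. In the same order 5.19%, 6.05%, 12.9% and 9.94% of all genes fell.

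The tricarboxylic acid cycle feeds NADH and succinate to the chain. The list of 17 genes used for it also holds Pdha1, a gene of pyruvate dehydrogenase. In TNFΔARE vehicle mice 9 of the 17 fell and 0 rose (median −0.40, with 7.27% of all genes falling). Among them were Ogdh (−0.89 ± 0.18), Dlst (−0.63 ± 0.13), Cs, the citrate synthase (−0.68 ± 0.16), and Sucla2 (−0.60 ± 0.14). Under ATI-450 5 of 17 fell (4.56% of all genes). In the transfer model 2 of 17 fell under vehicle (Idh3a and Suclg2; 6.28% of all genes) and 6 of 17 under ATI-450 (11% of all genes). Without the 6 libraries that stand apart these were 1 (Cs) and 8, where 1.81% and 9.64% of all genes fell. With the covariate 14 and 13 of 17 fell in the TNFΔARE model and 2 and 7 in the transfer model, under vehicle and ATI-450. In the same order 12.9%, 9.94%, 5.19% and 6.05% of all genes fell in those fits. Of 15 glycolysis genes, 5 rose in TNFΔARE vehicle mice (Slc2a1 by 1.68 ± 0.18, Hk2 by 1.18, Hk1 by 0.96, Pfkl by 0.87 and Aldoa by 0.51) and 3 under ATI-450, against 0 and 1 of 15 in the transfer model (0 and 0 without the 6 libraries), and none fell in these 4 comparisons. Of all genes 8.66% and 7.91% rose in the TNFΔARE model and 7.9% and 14% in the transfer model, under vehicle and ATI-450. Without the 6 libraries 4.97% and 12.2% rose in the transfer model.

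Of 15 regulators of mitochondrial biogenesis, Ppargc1a, the coactivator of respiratory genes, fell in all 4 comparisons of inflamed with non-inflamed mice. Its log2 fold changes were −1.60 ± 0.38 and −1.92 ± 0.37 in the transfer model (vehicle and ATI-450) and −1.38 ± 0.32 and −1.71 ± 0.42 in the TNFΔARE model (edgeR adjusted p from 0.0011 to 0.0094). Without the 6 libraries that stand apart Ppargc1a fell by 1.86 ± 0.38 and 2.20 ± 0.37 in the transfer model (edgeR adjusted p = 0.0128 and 0.0013), and of the other regulators named next Tfb2m alone passed there, under ATI-450. Esrrg and Ppargc1b fell in the transfer model under both treatments, Esrra fell in TNFΔARE mice under ATI-450, Gabpa and Tfb2m fell in transfer mice under ATI-450, and Gabpb1 rose in transfer mice under vehicle. In these comparisons 14.2% and 25% of all genes changed in the transfer model and 15.9% and 12.5% in the TNFΔARE model (vehicle and ATI-450). Without the 6 libraries 1.81% and 9.64% of all genes fell in the transfer model. Among the assembly factors of the complexes, 0 of 15 for complex I changed in any of the 4 comparisons without the covariate. Of 20 for complex IV, Coa7 and Sco1 fell in TNFΔARE vehicle mice, Sco1 under ATI-450 and Cox15 in ATI-450 transfer mice. Without the 6 libraries that stand apart Sco1 and Uqcc1, an assembly factor of complex III, also fell in ATI-450 transfer mice. Sdhaf1, an assembly factor of complex II, rose in TNFΔARE vehicle and ATI-450 transfer mice, and Atpaf1 of complex V fell in TNFΔARE vehicle mice. Of the electron carriers tested, Cycs, the cytochrome c gene, fell in TNFΔARE vehicle mice (−0.71 ± 0.24, edgeR adjusted p = 0.0482).

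Cell type markers moved with inflammation beside these genes. Under vehicle 7.9% of all genes rose and 6.28% fell in transfer mice, and 8.66% and 7.27% in TNFΔARE mice. Of 10 neutrophil markers 9 rose in transfer vehicle mice, and all 7 tested rose in TNFΔARE vehicle mice, where their sum went from a mean of 9.95 to 209.8 CPM. Of 10 monocyte and macrophage markers 7 and 9 rose, and of 10 T cell markers 8 rose in the transfer model and 0 in TNFΔARE vehicle mice. Small intestinal enterocyte markers fell in TNFΔARE vehicle mice (7 of 10), with sums between 23180 and 44130 CPM without and between 12840 and 22570 CPM with inflammation. In the transfer model 7 of 10 smooth muscle markers and 4 of 10 colonocyte markers fell under vehicle. Without the 6 libraries that stand apart 0 and 1 of them fell there, and 7 neutrophil, 8 monocyte and macrophage and 6 T cell markers rose. In that fit 4.97% of all genes rose and 1.81% fell. Of the 9 general epithelial markers tested 0 changed in transfer and 1 rose and 1 fell in TNFΔARE vehicle mice. The part of these shifts in the levels of the respiratory chain genes was not tested.

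Several members share sequence with copies in the genome, and their counts are uncertain for that reason, as are the very low counts of Ndufa4 and Cox6b1. The copy Gm10221 held 93.2% of the counts of itself and Atp5l, Ndufb4c 79.9% of its pair with Ndufb4, Gm10175 77.7% of its pair with Atp5g2, Gm12338 71.4% of its pair with Cox7c and Gm10039 39.9% of its pair with Atp5g1. Cox6c and Cox6c2, both in the set, share 61.7% of the 31-base words of Cox6c2. Adding the counts of copies to their members left 0 higher and 0 lower in transfer vehicle mice and 1 lower in TNFΔARE vehicle mice, the same counts as without them.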

How the data were processed

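RNA of 44 libraries in 8 groups was quantified per gene by the authors. Salmon 0.14.1, DESeq2 and the builds mm10 and GRCm38 are listed, without a role, in the submitters' processing notes. Expected counts per gene were tested as the authors deposited them. The authors also deposited a normalized signal per gene. It was used only on a log2 scale (log2 of signal plus 1) with limma. All 44 columns were used and 0 were left out. Of 29720 gene IDs 29395 had a symbol.

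Main tests were edgeR 4.0.16 quasi-likelihood fits per model (R 4.3.3) with all 4 groups, TMM scaling, the labelled batch as a term and edgeR's expression filter, with Benjamini-Hochberg adjustment over all genes and a threshold of 0.05. The inhibitor effect was tested in inflamed and in non-inflamed mice. A joint fit compared the models. CPM values use TMM-scaled library totals. A second fit added the short-minus-long transcript value (pseudocount 0.5, genes that averaged 10 CPM or more, transcript lengths from the reference annotation). Alternatives were DESeq2 1.42.0, limma 3.58.1, other scalings, filters and batch settings, and leaving out libraries. The covariate, the older quasi-likelihood estimate, the libraries left out for pancreatic transcripts and the addition of sequence copies were chosen after seeing the data. The edgeR step was tested on simulated data.

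Genes were named by a rule: the isoform genes, complex II and the subunit c genes always, then per comparison and complex the 3 called genes of smallest p, the 3 largest rises and falls among called genes, and the 3 smallest p where none was called. Atp5a1, Atp5b, Cox6b1, Ndufa10, Ndufb4 and Ndufs4 were named for their levels, spread or copies after their values were seen. The members and lists were chosen with earlier results of these data known. Promoter sequences are from RefSeq (GRCm38.p6). Library totals of 5801000 to 22350000 counts leave genes under about 1 CPM with few counts.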

Additional observations from a re-analysis of the deposited data

Results flagged for a closer look

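Single libraries stood far above the rest of their group in 36 of 192 group values checked, where chance flags about 1 in 20 separate groups. The sums hold the single genes and the genes vary together, so this rate cannot be set against that count. Most belonged to 4 libraries. In non-inflamed vehicle transfer replicate 4 the genes summed to 28530 CPM (complex I 6402, complex V 10320), with Cox6a1 at 778.9, Cox7a2 at 76.12, Sdhb at 321.9 and Atp5g3 at 1154 CPM. In inflamed vehicle transfer replicate 6 they summed to 27800 CPM (complex I 6377, complex IV 5899), with Cox4i1 at 1567, Cox6a1 at 718.1, Cox7a2 at 21.37, Cox7a2l at 311.2, Cox8a at 765.6 and Cox8b at 1.768 CPM. In the same library Sdhc stood at 383.5, Sdhd at 638.3 and Atp5g3 at 1169 CPM. In non-inflamed ATI-450 transfer replicate 4 they summed to 27900 CPM (complex I 6248, complex II 1746, complex V 10370), with Cox7a1 at 110.4 CPM. In non-inflamed vehicle TNFΔARE replicate 4 complex IV summed to 6016 CPM, with Cox7a2 at 127.6, Cox8a at 785.8, Sdhd at 791.1 and Atp5g1 at 210.3 CPM. These 4 libraries were also the highest of their groups in the short-minus-long transcript value.

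The other high values were scattered. Inflamed ATI-450 transfer replicate 2 had 38820 CPM of mitochondrially encoded subunits and 77.42 CPM of Cox7a2, and replicate 5 of that group had 2.942 CPM of Cox6a2 beside 1079 CPM of skeletal muscle markers. Inflamed vehicle transfer replicate 3 had 51.15 CPM of Cox7a1. In the TNFΔARE model Ndufa4 stood at 10.26 CPM in inflamed vehicle replicate 2 and 3.768 CPM in inflamed ATI-450 replicate 4, and Cox8b at 2.134 CPM in inflamed ATI-450 replicate 6. The inflammation effect differed between the models in the covariate fit for Uqcrq (0.46 higher in the transfer model, log2) and Atp5g3 (0.40 higher).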

How the results depend on the processing

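Among alternative values for the named genes, 5084 stayed on the same side of the threshold (353 of them with the opposite sign, passing in neither setting), 116 newly passed it with the same sign, 47 no longer passed, and 14 had the opposite sign and passed in 1 of the settings. The labels do not say that replicate numbers pair the samples, and the main fits held no replicate block. Same-numbered pairs that correlated above 0.1 were 0 of 4 for transfer inflammation under vehicle. They were 3 of 4 for ATI-450 in non-inflamed transfer mice. So few pairs, with no unmatched pairs beside them, cannot decide whether the numbers pair the samples. With the replicate block, 40 genes were higher and 1 lower in transfer vehicle inflammation, 0 lower in TNFΔARE vehicle inflammation and 25 higher in transfer inflammation under ATI-450, and no other count moved. The covariate gave 23 lower (transfer vehicle), 49 lower (TNFΔARE vehicle), 0 higher and 15 lower (transfer ATI-450), 43 lower (TNFΔARE ATI-450), 2 higher for the difference of effects and 38 lower between non-inflamed vehicle groups. Among the named genes that passed with it, the sign turned for Cox8a (−0.39), Ndufa3 (−0.33), Uqcrh (−0.44), Atp5j (−0.31), Atp5h (−0.31) and Atp5mpl (−0.25) in transfer vehicle mice, where values above 0 went from 64 to 6 of 82. Under ATI-450, where they went from 63 to 6, it turned for Cox6a1 (−0.42), Cox8a (−0.36), Ndufv3 (−0.28), Ndufb5 (−0.29), Ndufs7 (−0.29), Uqcrfs1 (−0.27) and Atp5d (−0.33). The batch term turned Cox6c2 between the models (0.42) and left 1 higher there, as did the 2 groups alone (1).

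Transfer vehicle counts were 1 higher with DESeq2, and 1 higher and 1 lower without replicate 3. Its covariate count was 0 in a single batch, 43 with no batch term and 3 without the 6 libraries. TNFΔARE vehicle counts were 1 higher and 0 lower with no filter, 0 lower in the 2 groups alone or a single batch, 2 lower by limma, and 18 with the covariate in a single batch. For transfer inflammation under ATI-450, 0 rose with the older estimate, no filter, no batch term, a single batch, limma, copies added or without the 6 libraries, and 2 with the 2 groups alone, DESeq2 or without replicate 3. There 1 fell with no filter, no batch term or without the 6 libraries, 4 with the 2 groups alone, and 0 in a single batch or by limma. Its covariate count was 2 in a single batch, 42 with no batch term, 30 by DESeq2 and 27 without the 6 libraries. TNFΔARE under ATI-450 gave 35 with no batch term and 1 by DESeq2. For the difference of effects with the covariate, no batch term gave 1 higher and 4 lower, no ribosomal genes 0 and 1, DESeq2 2 lower, and leaving out the 6 libraries 0 higher. No filter left 0 lower between non-inflamed groups, and unscaled totals put complex II in non-inflamed ATI-450 TNFΔARE mice at 1282 CPM. The cause was not tested.

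Leaving out 1 library gave 0 to 1 higher and 0 to 1 lower (transfer vehicle; 0 to 1 and 7 to 27 with the covariate), 0 to 1 lower (TNFΔARE vehicle; 29 to 54), 0 to 6 higher and 0 to 3 lower (transfer ATI-450; 3 to 19) and 2 to 52 lower (TNFΔARE ATI-450, covariate). The difference of effects gave 0 to 1 higher (0 to 3 higher and 0 to 1 lower with the covariate), and the non-inflamed groups 2 to 3 higher and 0 to 3 lower (2 to 3 and 31 to 42). A single-batch fit was not run for ATI-450 in inflamed mice or for TNFΔARE inflammation under ATI-450. Few counts limit Ndufa4, Cox6a2, Cox8b, Cox4i2 and Atp5s.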
